A study of Mus musculus with 10 samples.

Results

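The ARID family genes are named for the AT-rich interaction domain, a DNA-binding fold shared by proteins of several chromatin complexes. Transcripts of 10 ARID family genes, *Arid1b*, *Arid1a*, *Arid2*, *Arid3a*, *Arid3b*, *Arid4a*, *Arid4b*, *Arid5a*, *Arid5b* and *Jarid2*, were compared between the whole brains of *Arid1b* heterozygous (HT) and wild-type (WT) mice. Members were chosen by gene symbol and not by their values, though with earlier results of these data known. All 10 were found among the 18444 genes of the table and passed the filter on low values. Both groups held 5 libraries from male C57BL/6N mice at postnatal day 3 (P3), for which no treatment is named. HT mice carried 1 edited *Arid1b* allele in all tissues, from a single CRISPR/Cas9 line made with a Cas9 nickase and guides on both sides of exon 5, and WT mice carried none. Litters of the study had HT sires and WT dams. Means are given with the SD over 5 libraries unless stated otherwise.

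ARID1A and ARID1B are alternative large subunits of the canonical BAF (SWI/SNF) complex, which moves nucleosomes, and a given complex holds one or the other. ARID2 takes the corresponding place in the related PBAF complex. ARID4A and ARID4B belong to the SIN3 histone deacetylase complex, JARID2 guides Polycomb repressive complex 2 (PRC2), and the ARID3 and ARID5 proteins bind DNA or RNA outside these complexes. Loss of 1 copy of *ARID1B* in people causes Coffin-Siris syndrome and intellectual disability.

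The edited exon is shown because the comparison of *Arid1b* rests on it. *Arid1b* (ENSMUSG00000069729) lies on the plus strand of chromosome 17 from 4994332 to 5347656 in GRCm38. Exon 5 of its longest coding transcript (20 exons, 11325 bases) lies at chr17:5242828-5243071, within the coding sequence, and belongs to 4 of its 4 annotated coding transcripts. Its 244 bases, read 5′ to 3′ from the GENCODE M21 transcript, are given on the next line.
Arid1b exon 5: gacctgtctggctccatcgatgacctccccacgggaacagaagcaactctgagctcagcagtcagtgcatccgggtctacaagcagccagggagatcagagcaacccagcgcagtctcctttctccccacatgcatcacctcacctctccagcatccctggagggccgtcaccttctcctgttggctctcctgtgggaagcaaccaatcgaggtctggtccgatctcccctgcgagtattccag

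The study's methods describe the allele as a deletion that spans exon 5 with a short insertion, while its description elsewhere is of an insertion near the start of exon 5. Which of these was carried was not tested, since the table holds no reads. The exon length leaves a remainder of 1 on division by 3, so that a transcript without exon 5 changes reading frame. For the deletion, the join of exon 4 to exon 6 was read in the annotated frame. The last 30 bases of exon 4 are followed by 63 bases of exon 6, which end at the first in-frame stop codon, in capitals.
Arid1b exon 4 joined to exon 6: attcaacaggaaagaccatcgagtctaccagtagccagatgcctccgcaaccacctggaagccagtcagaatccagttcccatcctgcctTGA

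This frame held 641 codons before the stop, 28.6% of the 2244 codons of the intact frame, and 14 exon junctions lay downstream of the stop. Stop codons well upstream of the last junction are, as background, a known trigger of nonsense-mediated decay. The join was computed from the reference transcript, and no reads across it were analysed here. Exon 5 makes up 2.15% of the bases of the longest coding transcript. Reads were not counted by exon, and the part of the exon in the count of the gene was not tested.

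Library HT 4 stood apart from the other libraries over all genes. Its log2 values differed from the mean of each gene by 0.209 in the median, without regard to sign, where the other 9 libraries differed by 0.0772 to 0.108. Genes with long transcripts were low in HT 4 and genes with short transcripts high. By decile of transcript length, HT 4 had a median log2 deviation of -0.34 for the longest (from 6578 bases) and 0.27 for the shortest (up to 1238 bases). All 10 ARID family genes lie in the longest 4 deciles, and *Arid1b*, *Arid1a*, *Arid2* and *Arid5b* in the longest one. Results are therefore given with and without HT 4. The 15 markers of brain neurons and glia were all present, the lowest being *Olig2* with a mean of 1030 normalised counts. Marker sums of choroid plexus did not overlap between groups (6530 to 9394 in HT, 9928 to 13630 in WT). The log2 fold change was below 0 for 5 of 5 of its genes (0 called). It was also below 0 for all 8 markers of cycling cells (0 called), whose sums overlapped (5157 to 8153 in HT, 6297 to 8177 in WT). Of all single genes tested, 0.347% had groups that did not overlap with HT lower. A log2 fold change below 0 was found for 53.6% of them. No such share was computed for sums of genes, and genes of a list need not vary independently. The lowest choroid plexus gene, *Kcne2*, had a mean of 73.3 normalised counts. Sums of the other marker lists overlapped with 0 genes called, with a lower HT mean for 9 of 9 microglial, 6 of 6 skeletal muscle and 4 of 4 pituitary genes and a higher one for 6 of 6 erythroid genes. HT 4 had the highest sum of all 10 libraries for the oligodendrocyte lineage (19323, against at most 15851 in WT) and for astrocytes and radial glia (59630, against at most 55842 in WT), and the lowest for neurons (176480, against at least 179370 in WT). HT 4 also gave the highest HT sum for cycling cells (8153), microglia (2945.5) and skeletal muscle (283). Marker sums are given with all libraries only. The part of these markers in the results below was not tested.

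*Arid1b* transcripts were compared first, as a check of the genotype. *Arid1b* had normalised read counts of 2372, 2230.1, 2253, 1505 and 2142 in HT 1 to HT 5. In WT 1 to WT 5 it had 3386, 3155, 3597, 3429 and 3108. Every HT library lay below every WT library, HT 4 was the lowest of all, and the other HT libraries kept within a narrow band. The means were 2101 ± 343 for HT and 3335 ± 203 for WT (SD, n = 5), so that HT stood at 63.0% of WT (67.5% without HT 4). The log2 fold change was -0.68 ± 0.11 (SE), with a two-sided exact permutation p of 0.00794, the smallest that 5 against 5 libraries can give. Of the 17020 genes tested, *Arid1b* had the smallest unadjusted p in the limma fit (2.29e-05), with all libraries and also without HT 4 or with the trend on transcript length and GC content removed from every library.

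The limma adjusted p of *Arid1b* was 0.390 with all libraries, so that the gene did not pass the threshold of 0.05 over all genes. None of the 17020 genes did in limma (0 called), while 580 had an unadjusted p under 0.05. It passed without HT 4, at -0.57 ± 0.050 (SE) on the log2 scale with an adjusted p of 2.52e-04. It also passed with all 10 libraries once the length and GC trend was removed, at -0.67 ± 0.047 (SE) and an adjusted p of 3.74e-05. With the trend removed, the deviation of HT 4 from the mean of the gene was -0.51, against -0.32 to -0.27 in the other HT libraries and 0.30 to 0.37 in WT.

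The 95% interval of the *Arid1b* fold change ran from 53.2% to 73.0% of the WT level with all libraries and from 62.7% to 72.7% without HT 4. Both intervals lay above 50%, the level of 1 of 2 equal alleles. Fewer cells with *Arid1b* transcripts and less *Arid1b* RNA per cell cannot be told apart in whole-brain RNA. A share of 0.182% of the 31-base words in *Arid1b* transcripts is found in other genes, and 0 words in *Arid1a*.

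**Figure D1:**
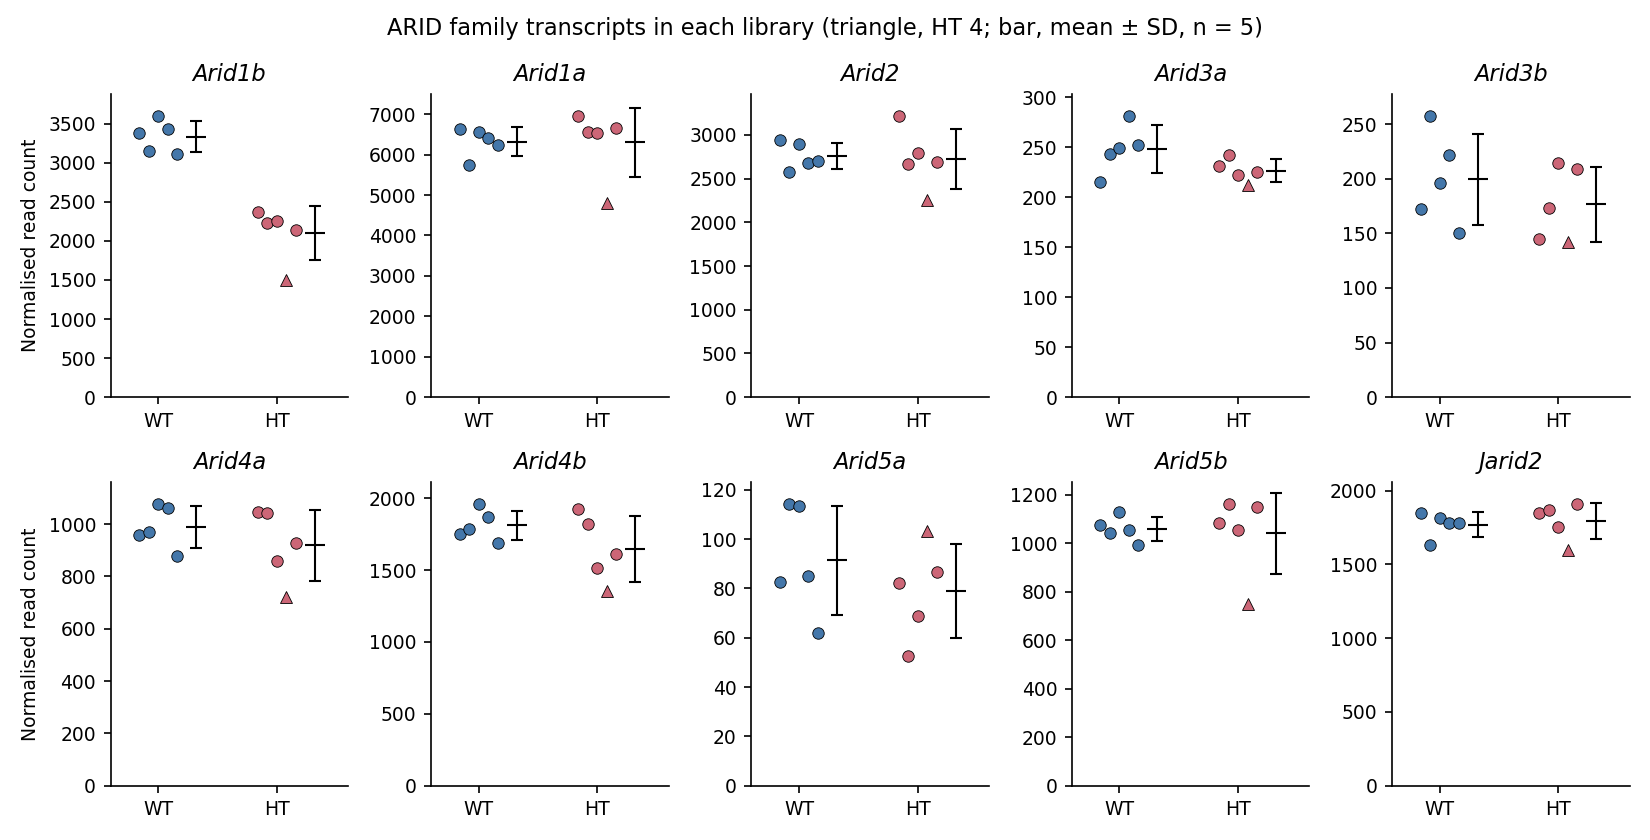
Normalised read counts (y axes, from 0) of the 10 ARID family genes in WT and HT, 1 point per library, with HT 4 as a triangle and the mean ± SD (n = 5) beside each group. The HT points of *Arid1b* (1505 to 2372) all lie below the WT points (3108 to 3597), while in the other 9 panels the groups overlap.

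*Arid1a*, the paralog that fills the same place in BAF, was next compared. *Arid1a* (ENSMUSG00000007880; chromosome 4, 133679008 to 133756769, minus strand) had 6954, 6548.5, 6530.5, 4811 and 6664 normalised counts in HT 1 to HT 5. In WT 1 to WT 5 it had 6628, 5733, 6569, 6407 and 6233. The groups overlapped, with HT 4 lowest and HT 1 highest of all libraries. The means were 6302 ± 850.2 for HT and 6314 ± 359 for WT, a log2 fold change of -0.013 ± 0.089 (SE; limma adjusted p 1.00). The 95% interval allowed a level from 86.8% to 113% of WT, and from 99.2% to 113% without HT 4, where the log2 fold change became 0.082 (adjusted p 0.645). Of the 31-base words of *Arid1a*, 2.65% are shared with other genes, most of them with *Gm8134*.

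The count of *Arid1b* relative to *Arid1a* within a library does not depend on the size factor of that library. The ratio was 0.341, 0.341, 0.345, 0.313 and 0.322 in HT 1 to HT 5. It was 0.511, 0.550, 0.548, 0.535 and 0.499 in WT 1 to WT 5. On this measure HT 4 lay close to HT 5, and the gap between the groups was wider than the range of either. The ratio fell from a WT mean of 0.529 ± 0.023 to an HT mean of 0.332 ± 0.014, a log2 difference of -0.67 ± 0.040 (SE, exact permutation p 0.00794). The same p, the smallest possible here, was found with each library left out, with -0.65 without HT 4. *Arid1b* gave 24.9% ± 0.802 of the summed counts of the pair in HT libraries and 34.6% ± 0.983 in WT libraries.

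The summed count of *Arid1a* and *Arid1b* was 8402 ± 1189 for HT against 9649 ± 527 for WT (exact permutation p 0.0159), a test chosen after the values were seen. The groups overlapped, with HT 1 (9326) above WT 2 (8888). Without HT 4 the difference moved from -1247 to -725 normalised counts (exact permutation p 0.0317).

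**Figure D2:**
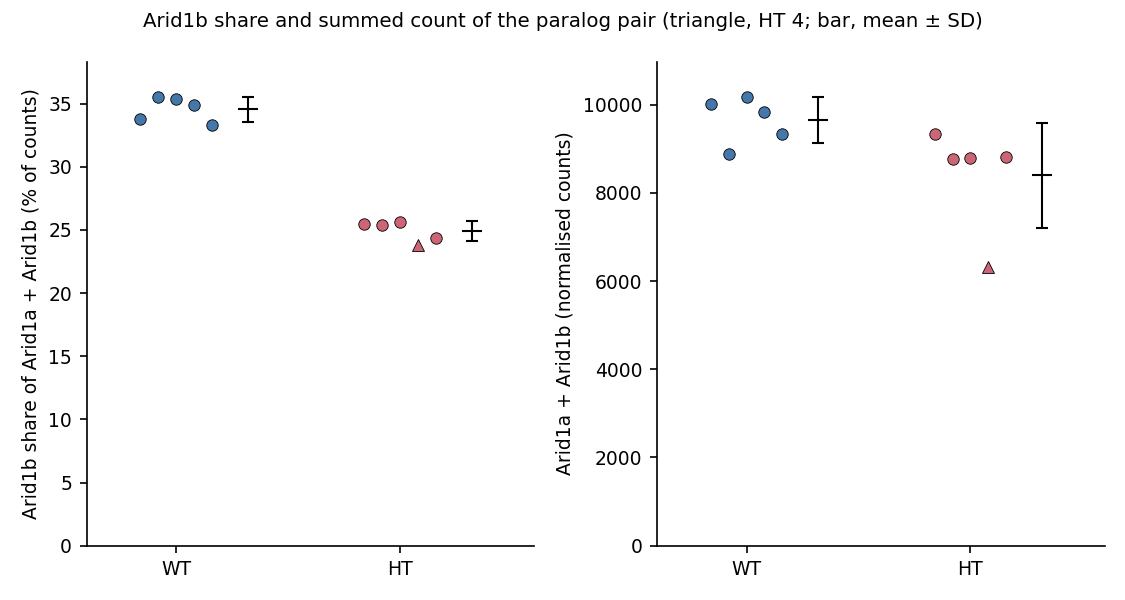
Left, share of the summed *Arid1a* and *Arid1b* normalised counts that came from *Arid1b* (percent); right, the sum itself, in each library, with HT 4 as a triangle and the mean ± SD (n = 5). HT shares (23.8% to 25.7%) lie below WT shares (33.3% to 35.5%), and HT 4 is apart in the sum (6317) but not in the share.

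*Arid2* (ENSMUSG00000033237; chromosome 15, 96287518 to 96404992, plus strand) encodes the ARID subunit of PBAF. It had 3217, 2672, 2795, 2252.5 and 2693 normalised counts in HT 1 to HT 5 and 2944, 2580.2, 2893, 2679.8 and 2698 in WT 1 to WT 5. The WT values lay within the HT range. HT differed from WT by -0.025 ± 0.080 (SE) on the log2 scale, or by 0.042 without HT 4.

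*Arid4a* (ENSMUSG00000048118; chromosome 12, 71015990 to 71098592, plus strand) and *Arid4b* (ENSMUSG00000039219; chromosome 13, 14063232 to 14199603, plus strand) encode retinoblastoma-binding subunits of the SIN3 complex. *Arid4a* had 1045, 1043, 858, 720.02 and 927 normalised counts in HT 1 to HT 5 and 958, 970.1, 1075, 1062 and 877 in WT 1 to WT 5. *Arid4b* had 1928, 1821, 1517, 1352 and 1612 in HT 1 to HT 5 and 1751, 1789, 1957, 1866 and 1691 in WT 1 to WT 5. In both genes HT 4 was the lowest library, HT 1 the highest of HT and WT 3 the highest of all, and the groups overlapped. The log2 fold changes were -0.11 ± 0.099 (SE) for *Arid4a* and -0.15 ± 0.087 (SE) for *Arid4b*, and -0.030 and -0.079 without HT 4. *Arid4b* had an unadjusted limma p of 0.0365 with the length and GC trend removed, at a log2 fold change of -0.12 and an adjusted p of 0.998. Of its 31-base words 1.84% occur in other genes, most of them in *Ggps1*, whose exons overlap it on the opposite strand.

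*Jarid2* (ENSMUSG00000038518; chromosome 13, 44729474 to 44921643, plus strand), the PRC2 partner, had 1847, 1866, 1755, 1594.5 and 1905 normalised counts in HT 1 to HT 5. In WT 1 to WT 5 it had 1846, 1631, 1812, 1780.2 and 1780.3. The groups overlapped, and HT 4 was again lowest, at 86.5% of the mean of the other HT libraries. The log2 fold change was 0.018 ± 0.059 (SE), the highest of the 10, and its 95% interval from -0.11 to 0.14 was the narrowest.

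*Arid3a* (ENSMUSG00000019564; chromosome 10, 79927043 to 79955018, plus strand), also called Bright, and *Arid3b* (ENSMUSG00000004661; chromosome 9, 57790353 to 57836793, minus strand) encode sequence-specific DNA-binding factors. *Arid3a* had 231, 242, 222, 212 and 225 normalised counts in HT 1 to HT 5 and 215, 243, 249, 281 and 252.3 in WT 1 to WT 5. *Arid3b* had 145, 173, 214, 142 and 209 in HT 1 to HT 5 and 173, 258, 196, 222 and 150.05 in WT 1 to WT 5. *Arid3a* was steady in HT, within a coefficient of variation of 4.99%, while *Arid3b* varied by 19.4% in HT and 21.03% in WT. The log2 fold changes were -0.13 ± 0.087 (SE) and -0.17 ± 0.16 (SE), and the groups overlapped in both. Without HT 4 they were -0.10 for *Arid3a* and -0.097 for *Arid3b*. Single WT libraries moved them as well, to -0.081 for *Arid3a* without WT 4, and for *Arid3b* to -0.072 without WT 2 and -0.27 without WT 5. In *Arid3b*, 4.14% of the 31-base words are shared with other genes, most of them with *Gm17231* on the opposite strand.

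*Arid5a* (ENSMUSG00000037447; chromosome 1, 36307733 to 36324029, plus strand) encodes a protein that stabilises cytokine transcripts, and *Arid5b* (ENSMUSG00000019947; chromosome 10, 68092520 to 68278740, minus strand) a partner of the histone demethylase PHF2. *Arid5a* had 82.3, 52.7, 68.9, 103 and 86.7 normalised counts in HT 1 to HT 5 and 82.7, 114, 113, 85.1 and 62.1 in WT 1 to WT 5. *Arid5b* had 1084.5, 1159, 1054, 751 and 1150.5 in HT 1 to HT 5 and 1075.5, 1042, 1127, 1054 and 992 in WT 1 to WT 5. *Arid5a* was the 1 member in which HT 4 was the highest HT library, whereas in *Arid5b* HT 4 was far below the other 9. The *Arid5a* log2 fold change of -0.21 ± 0.21 (SE) was the lowest after *Arid1b* and had the widest interval, from -0.66 to 0.24. It was -0.32 without HT 4, -0.34 without WT 5 and -0.078 without HT 2. *Arid5b* had a log2 fold change of -0.041 ± 0.10 (SE), which became 0.072 without HT 4.

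Over the family, 0 of 10 genes had an adjusted p under 0.05 with all libraries, where 0% of all genes tested did. *Arid1b* was the 1 member with an unadjusted limma p under 0.05, lower in HT (1.93% of all genes), and the 1 member whose groups did not overlap, with HT lower (0.347% of all genes). The 95% interval included 0 in each of the other 9 members. A log2 fold change below 0 was found for 9 of 10 members, against 53.6% of all genes, with a median of -0.12 against -0.0074. Without HT 4 it was below 0 for 6 of 10 members (50.4% of all genes), with a median of -0.055 against -0.00081. With the length and GC trend removed it was below 0 for 9 of 10 members (53.2% of all genes). The median was then -0.11 against -0.0065. Without HT 4, *Arid1b* was also the 1 member with an adjusted p under 0.05 (0.0118% of all genes), the 1 member with an unadjusted p under 0.05 (8.4% of all genes) and the 1 member whose HT values all lay below WT (1.21% of all genes).

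**Figure D3:**
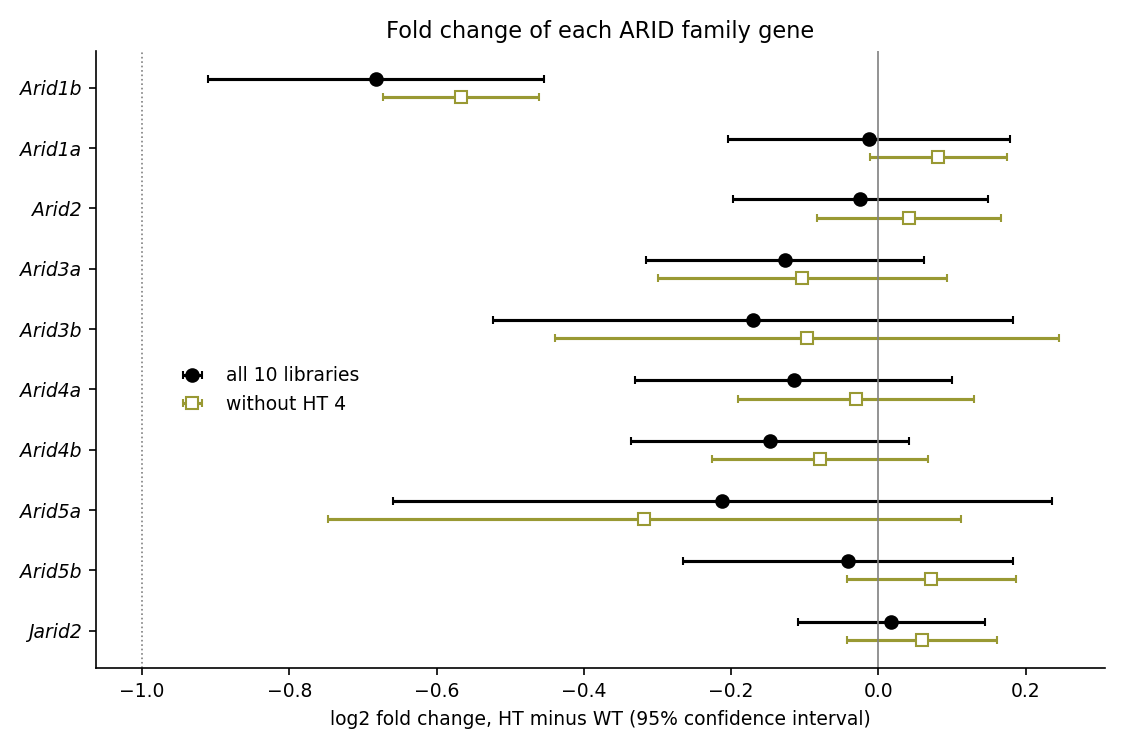
log2 fold change of each member, HT minus WT, with its 95% confidence interval from the limma fit, for all 10 libraries (filled circles) and without HT 4 (open squares); the solid line marks 0 and the dotted line marks 50% of WT. *Arid1b* alone has intervals clear of 0, and they stop short of the dotted line.

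HT 4 was the lowest of all 10 libraries for 9 of the 10 members, where it was lowest for 27.5% of all genes. The count in HT 4 ran from 66.9% (*Arid1b*) to 92.0% (*Arid3a*) of the mean of the other HT libraries in these 9 genes, and was 142% in *Arid5a*. The log2 deviations of *Arid1a* (-0.38) and *Arid2* (-0.28) in HT 4 were near the -0.34 of the longest decile. *Arid4a* (-0.39; 4998 bases) and *Arid3b* (-0.38; 4171 bases) lay lower than the median of genes of their length, at -0.12 and -0.054. After removal of the length and GC trend HT 4 was the lowest library for 5 of 10 members (23.3% of all genes). Its deviation was then near 0 for *Arid2* (0.018), *Arid4b* (-0.074), *Arid3a* (-0.0895) and *Jarid2* (-0.0030). It was -0.22 for *Arid1a*, -0.23 for both *Arid4a* and *Arid5b*, -0.38 for *Arid3b* and 0.38 for *Arid5a*. With HT 4 included, the coefficient of variation was higher among HT than among WT libraries in 7 of 10 members. This count was not made without HT 4 or over all genes, and the part of HT 4 in it was not tested. What set HT 4 apart was not tested beyond this trend.

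**Figure D4:**
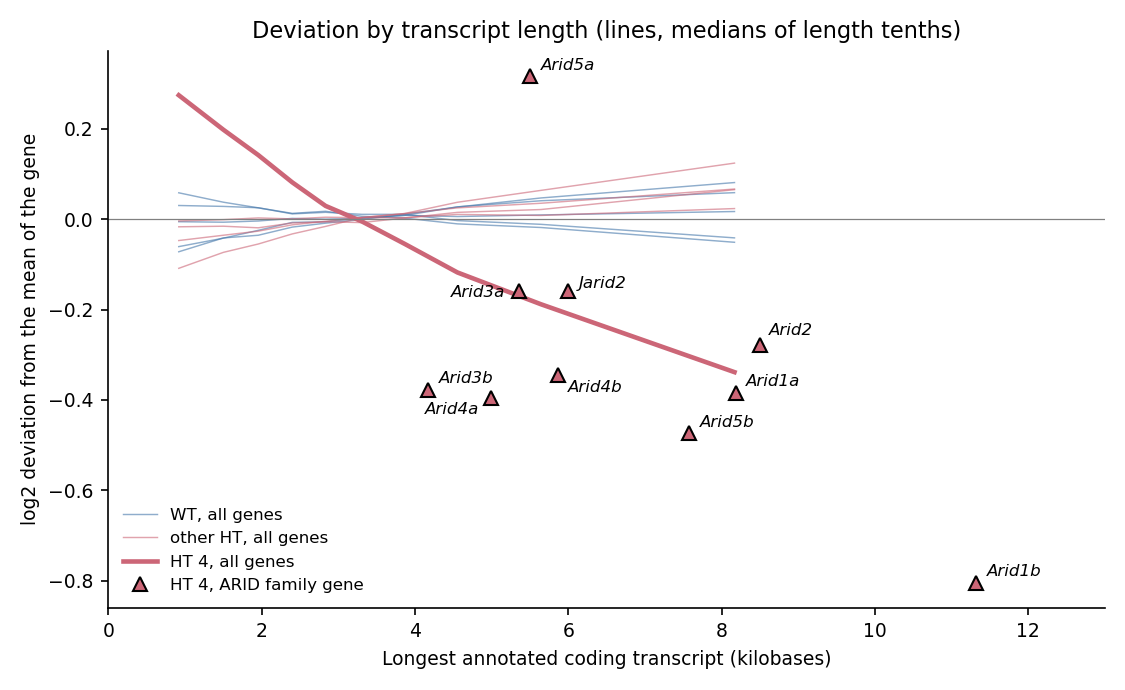
Deviation of log2 values from the 10-library mean of each gene (y axis) against the length of the longest annotated coding transcript (x axis, kilobases). Lines join the medians of the 10 length deciles of all genes in each library, with HT 4 thick, and triangles are the ARID family genes in HT 4. The HT 4 line falls from 0.27 to -0.34, and 9 of the 10 triangles lie below 0.

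Levels were compared between genes as normalised counts per kilobase of the longest annotated coding transcript. In WT, *Arid1a* was the highest at 771 ± 43.9 (SD, n = 5) per kilobase, above 85.9% of all genes in the table. *Arid2* (324 ± 18.1), *Arid4b* (309 ± 17.6), *Jarid2* (295 ± 13.7) and *Arid1b* (294 ± 17.9) followed as a group in which each gene overlapped its neighbour over the 5 WT libraries. *Arid4a* (198 ± 16.3) and *Arid5b* (139.6 ± 6.49) each stood apart from their neighbours. *Arid3b* (47.8 ± 10.1) and *Arid3a* (46.3 ± 4.40) did not differ beyond their spread, and *Arid5a* (16.6 ± 4.03) was the lowest.

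In HT the level of *Arid1b* was 185 ± 30.3 (SD, n = 5) per kilobase, close to *Arid4a* at 184 ± 27.3, which in WT it exceeded in every library. The levels of *Arid1a* (769.7 ± 104) and *Arid2* (320.4 ± 40.5) per kilobase in HT were the highest and next highest. The length of the transcript chosen sets these values. With the mean length of all coding transcripts, *Jarid2* moved from place 4 to place 2 in WT, and the other genes kept their relative order there. In WT, *Arid1b* (374 ± 22.7) and *Arid4a* (361 ± 29.8) then did not differ beyond their spread. In HT, *Arid1b* and *Arid4a* were then no longer close and changed places, with means of 236 and 336 normalised counts per kilobase.

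**Figure D5:**
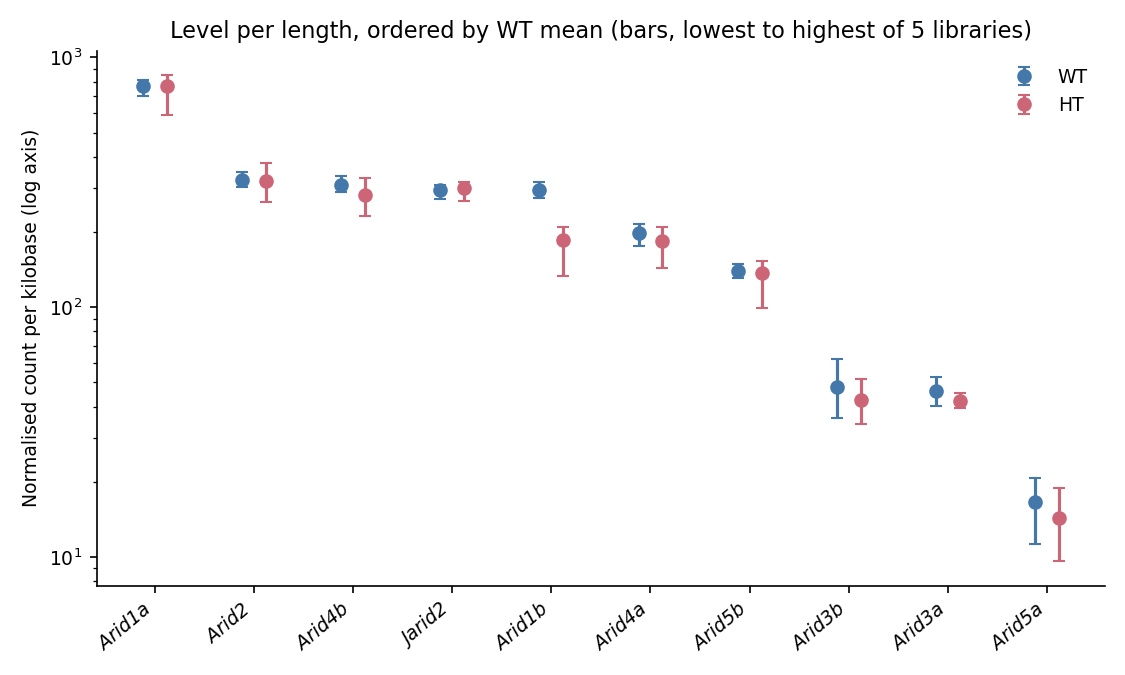
Normalised count per kilobase of the longest coding transcript (log axis) for the 10 members, ordered by the WT mean; points are means and bars run from the lowest to the highest of 5 libraries. *Arid1b* is the 1 gene whose HT bar (133 to 209) lies wholly below its WT bar (274 to 318).

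The ARID domain is also found in the KDM5 demethylases, which remove methyl groups from lysine 4 of histone H3, and in *Arid3c*. An unadjusted limma p under 0.05 was found for 0 of the 4 *Kdm5* genes tested, where 3.41% of all genes had one. The HT and WT means were 1167 ± 236 and 1205 ± 104 normalised counts for *Kdm5a*, 3595 ± 427 and 3795 ± 103 for *Kdm5b*, 2055 ± 325 and 2159.9 ± 139 for *Kdm5c* on the X chromosome, and 1032 ± 185 and 1081 ± 95.8 for *Kdm5d* on the Y chromosome. HT 4 was the lowest library for all 4, as it was for 9 ARID family members. Their log2 fold changes, -0.087 to -0.068, became -0.0091 to 0.058 without HT 4. *Arid3c*, with 3.31 to 17.95 normalised counts, was below the filter and was not tested.

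Subunits that join the ARID proteins in their complexes were compared as 4 lists of 44 genes in all, of which 2 are in 2 lists. Among 19 BAF subunits shared by ARID1A and ARID1B, 0 had an adjusted p under 0.05 and 0 an unadjusted p under 0.05 (3.41% of all genes, in either direction). They had a median log2 fold change of -0.025, and of 0.0084 once HT 4 was left out, with 14 and 9 genes below 0. Without HT 4, 1 of the 19 had an unadjusted limma p under 0.05 (8.4% of all genes). This was *Actl6a*, an actin-related subunit of progenitor BAF, with a log2 fold change of -0.28 (unadjusted p 0.00345, adjusted p 0.446), against -0.18 with all libraries, and it is named here after its values were seen. *Smarcd3*, a subunit of the BAF core, had the smallest p of the list, with 3202 ± 145 normalised counts against 2999.5 ± 53.2 in WT, a log2 fold change of 0.093 and an unadjusted limma p of 0.0588 (exact permutation p 0.0159). HT 4 was its highest library and the groups overlapped.

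Among the 3 PBAF subunits found with ARID2, *Brd7*, a bromodomain protein, was higher in HT with an unadjusted limma p of 0.0447 (1.47% of all genes in that direction; adjusted p 1.00). HT had 1908 ± 134.5 normalised counts against 1717 ± 148 for WT (exact permutation p 0.0794), and the groups overlapped. The list had a median log2 fold change of 0.012, and 0.12 without HT 4. There *Brd7* remained the 1 gene with an unadjusted limma p under 0.05 (0.0243), where 8.4% of all genes had one. Among 14 SIN3 complex subunits found with ARID4A and ARID4B, 0 had an unadjusted p under 0.05 (3.41% of all genes) and 0 without HT 4 (8.4% of all genes), and the median was -0.042 (-0.036 without HT 4). The smallest limma p was that of *Sap30l*, a SIN3-associated protein gene, with 345 ± 36.3 normalised counts against 305 ± 14.7 in WT. Its log2 fold change was 0.17 (unadjusted limma p 0.0610, exact permutation p 0.0556).

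Among 10 PRC2 subunits found with JARID2, *Aebp2*, which like *Jarid2* encodes an accessory subunit, had an unadjusted limma p of 0.0382 (adjusted p 1.00, exact permutation p 0.0238). Of all genes, 1.93% had an unadjusted p under 0.05 and were lower in HT, as *Aebp2* was. HT had 1238 ± 79.5 normalised counts against 1349 ± 34.7 for WT, a log2 fold change of -0.13, which became -0.093 without HT 4 (unadjusted p 0.0709). Without HT 4, 1 of the 10 again had an unadjusted limma p under 0.05 (8.4% of all genes), and this was *Ezh2*, the histone methyltransferase of PRC2. Its log2 fold change, named after its values were seen, moved from -0.18 to -0.26 (unadjusted p 0.0164, adjusted p 0.493). The list had a median log2 fold change of -0.010, against -0.0074 for all genes. No gene of the 4 lists had an adjusted p under 0.05, with all libraries or without HT 4.

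The genes most like *Arid1b* in profile were sought by the root-mean-square difference of log2 deviations over the 10 libraries. Among genes with a mean of at least 100, the nearest 5 were *Spink10* (0.157), *Gm10557* (0.199), *Ddit4l* (0.208), *Eya4* (0.218) and *Ddr2* (0.227). The median of 0.415 was taken over all genes tested, with those of lower mean included, so that it is not the median of the genes searched. *Ddit4l*, a gene of the stress-induced family that restrains mTOR signalling, had 103 ± 12.2 normalised counts in HT against 144 ± 13.9 in WT. *Ddr2*, a collagen receptor, had 466 ± 61.4 against 600.5 ± 85.5. A lower HT mean in these genes follows from their choice by the profile of *Arid1b* and is no separate result. All 5 had an adjusted p of 1.00. The names changed when HT 4 was left out, with 0 of these 5 genes among the nearest 5. Those were then *Ccnf* (0.0991), *Kif18a* (0.113), *Cd82* (0.117), *Kif11* (0.123) and *Ticrr* (0.132). Whether leaving out another library would change the names as much was not tested. None of the other 9 ARID family genes was in either set.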

How the data were processed

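Poly-A RNA from whole brains of male mice at P3 was sequenced as paired-end reads in 10 libraries. The labels number 5 replicates per group without naming animals or litters, so that p-values measure the spread between these samples. Per the study's methods and the submitters' processing notes, the authors quantified reads with Salmon 1.1.0 on GRCm38 with a GC bias correction, imported gene-level estimates with tximport and divided them by DESeq2 1.30.1 size factors. The deposited table holds this signal as a normalised read count per gene and library. The annotation release is not given in the sources used here. Values are not whole numbers, so count tests were not run.

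Identifiers were matched to GENCODE M21 (18431 of 18444), the source of symbols, positions, transcript lengths and sequences. Values were analysed as log2(value + 1) with limma 3.58.1 in R 4.3.3, with a mean-variance trend and robust empirical Bayes moderation, for the 17020 genes with a mean of at least 10. A fold change on this scale understates the change of low genes. HT was compared with WT without covariates by a two-sided test, and p-values were adjusted after Benjamini and Hochberg over all tested genes (threshold 0.05). Single values also had a two-sided exact permutation test over all divisions of the libraries into 5 and 5, whose smallest p is 0.00794. The workflow was tested on simulated data. Library sums ran from 27244000 to 29032000 normalised counts. The step that best matched the spacing of small values was 0.912 to 1.13 normalised counts. The steps were smeared, so that this is a rough guide to the counts per read, and whether each library has a single step was not tested. The alternatives were other pseudocounts and filters, sample weights, a non-robust fit, quantile normalisation, a replicate block, removal of a smooth trend on transcript length and GC content from each library (mgcv 1.9.3), and leaving out each library.

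The members and gene lists were chosen with earlier results of these data known. The rule for naming genes takes all members and the other ARID-domain genes, the partner subunits with an unadjusted p under 0.05 or else the 1 with the smallest p in each list, and the 5 genes nearest to *Arid1b* in profile, as root-mean-square difference of log2 deviations among genes with a mean of at least 100.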

Additional observations from a re-analysis of the deposited data

Results flagged for a closer look

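Single libraries far from their group were sought with Dixon's ratio, the gap from the extreme library to its neighbour over the whole range, with a limit of 0.71 for 5 libraries. The ratio was above the limit in 4 of 34 checks (17 results, each in both genotypes), where chance would give about 1.7, and all 4 concerned HT 4. Its counts were far below the other HT libraries for *Arid1b* (0.735), *Arid1a* (0.802), *Arid5b* (0.742) and the sum of *Arid1a* and *Arid1b* (0.818). These 4 checks are not independent, since they share HT 4 and the sum is made of *Arid1a* and *Arid1b*. Setting 4 against 1.7 is therefore not a test. The *Arid1b* to *Arid1a* ratio within a library was below the limit in both genotypes. The cause of the distance of HT 4 was not tested.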

How the results depend on the processing

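The *Arid1b* log2 fold change was below 0 in each of 20 alternatives (adjusted p from 3.75e-07 to 1.00) and passed the adjusted threshold in 4 of them, at -0.60 with sample weights (adjusted p 6.87e-04), -0.67 with the length and GC trend removed, -0.63 with that removal and without HT 4 (3.75e-07) and -0.57 without HT 4. Without single libraries it ran from -0.73 (without HT 1) to -0.57. The number of genes called was 2 with sample weights, 1 with the trend removed, 2 with both the trend and HT 4 removed, and from 0 to 2 without single libraries, where the 2 came without HT 4. Members called numbered 1 in each of these cases and from 0 to 1 without single libraries. The *Arid1b* to *Arid1a* log2 difference ran from -0.69 to -0.65 and passed in 15 of 15 alternatives. Directions of small differences changed, none of them called: *Arid1a* was 0.051 with sample weights and 0.053 with trend and HT 4 removed (-0.051 to 0.082 without single libraries), *Arid2* 0.0064 with sample weights (-0.087 to 0.042), *Arid5b* 0.047 and 0.032 (-0.085 to 0.072), and *Jarid2* ran from -0.012 to 0.059 without single libraries. Their cause was not tested. Partner lists had 0 calls in 12 of 12 alternatives. With the mean length of the coding transcripts, WT levels per kilobase were 1047.5 for *Arid1a*, 655 for *Jarid2*, 592 for *Arid2*, 406 for *Arid4b*, 374 for *Arid1b*, 361 for *Arid4a*, 199.5 for *Arid5b*, 98.2 for *Arid3b*, 62.4 for *Arid3a* and 30.4 for *Arid5a*. *Arid5a* was not tested at a minimum mean of 100.

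The labels do not say whether the same replicate number in HT and WT pairs the mice. Between libraries of the same number, the correlation of deviations was 0.0815 to 0.0926 in 4 pairs, each the best match of its HT library. It was -0.10 in the pair numbered 4, and what libraries of the same number share was not tested. With the replicate number as a block, 0 genes were called and *Arid1b* had a log2 fold change of -0.68 (adjusted p 0.623).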
